A study of Mus musculus with 10 samples.

Results

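The genes described here encode the neurotrophins and the GDNF (glial cell line-derived neurotrophic factor) signal with their receptors: Bdnf, Ntf3, Ntrk2, Ntrk3, Ngfr, Gdnf, Ret and Gfra1. They were chosen by name, and all 8 were found among the 54532 genes counted in each library. The data are RNA-seq read counts of the cochlea, the hearing organ of the inner ear, in 12-month-old mtKeima mice, with 1 library per mouse. The mtKeima strain carries a reporter protein in its mitochondria that fluoresces according to pH, and all 10 mice carry it. The 5 NR-treated mice drank water with nicotinamide riboside (NR), a precursor of the coenzyme NAD+, at 7 mg/ml (24 mM), started at 2 months of age and kept up for 10 months. The 5 non-treated mice, named Vehicle in the labels, drank regular water for that time. Each comparison is between 12-month-old mice with and without NR, and it asks whether the trophic signals of the aged cochlea differed with the supplement.

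Neurotrophins are secreted proteins that keep sensory neurons alive and maintain their contacts. In the cochlea, brain-derived neurotrophic factor (BDNF, from Bdnf) and neurotrophin-3 (NT-3, from Ntf3) are known from hair cells and supporting cells, and the spiral ganglion neurons that innervate them carry the matching receptor kinases TrkB (from Ntrk2) and TrkC (from Ntrk3). The p75 receptor (from Ngfr) binds every neurotrophin and also their uncleaved precursors, and is found on neurons and on Schwann cells. GDNF signals through another pair, the membrane-anchored co-receptor GFRα1 (from Gfra1) and the receptor kinase Ret. Both Trk genes are also transcribed into truncated receptors without a kinase domain, which glia and fibroblast-like cells can carry. The counts are per gene, so full-length and truncated forms were counted together.

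Positions are on the mm10 build. Bdnf lies on chromosome 2 at 109674700 to 109727007 on the plus strand, Ntrk2 on chromosome 13 at 58806569 to 59133970 (plus) and Gdnf on chromosome 15 at 7810846 to 7837575 (plus). On the minus strand lie Ntf3 on chromosome 6 at 126101412 to 126166910, Ret on the same chromosome at 118151745 to 118197718, Ntrk3 on chromosome 7 at 78175959 to 78738012, Ngfr on chromosome 11 at 95568818 to 95587735 and Gfra1 on chromosome 19 at 58235604 to 58455909. Reads were counted without regard to strand. Exons of Bdnf share 896 bases with the antisense gene Gm45346, which had 5 reads over all samples, and exons of Gfra1 share 416 bases with the antisense gene Gm16277, which had 0 reads, so reads from the shared bases cannot be assigned to a strand. The other 6 genes share no exon base with another gene of the annotation.

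The RefSeq promoter table for GRCm38.p6, the assembly named mm10, holds start sites of 6 of the 8 genes, with 7 starts listed for Bdnf, 2 each for Ntf3 and Gdnf and 1 each for Ntrk2, Ngfr and Gfra1. The upstream sequences of Ntrk2 and Ngfr are shown because these were the 2 genes that passed an unadjusted test and because their levels were correlated over the mice. Each window runs from 250 to 51 bases before the start, 5′ to 3′ on the strand of the gene, with GGGCGG, the core of the GC box, in capitals. The Ntrk2 window is chr13:58806319-58806518 on the plus strand and the Ngfr window is chr11:95587749-95587948 on the minus strand.
Ntrk2: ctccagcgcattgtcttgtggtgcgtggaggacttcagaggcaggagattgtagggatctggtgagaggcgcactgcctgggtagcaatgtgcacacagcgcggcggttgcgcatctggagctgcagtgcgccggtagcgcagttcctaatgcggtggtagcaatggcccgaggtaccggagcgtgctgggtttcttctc
Ngfr: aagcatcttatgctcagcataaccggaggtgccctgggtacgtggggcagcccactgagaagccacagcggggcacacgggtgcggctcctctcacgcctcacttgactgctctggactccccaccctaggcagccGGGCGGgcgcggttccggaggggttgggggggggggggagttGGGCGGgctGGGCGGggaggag
The Ngfr window holds 3 copies of GGGCGG and the Ntrk2 window holds 0 on either strand, and 24.6% of the 32851 windows of the table hold at least 1. Their GC content is 70.0% and 61.0%, above the median of 51.5% of all windows. The E-box CANNTG occurs once in each, as it does at least once in 59.0% of windows, and neither holds the cAMP response element TGACGTCA or TATAAA on either strand, which are found in 0.828% and 9.14%. The motif GGGCGG overlaps none of the others in these 2 windows. A match describes the letters of the window only.

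Library totals ran from 17060379 to 24419230 counted reads, with medians of 22346972 in NR-treated and 23007355 in non-treated mice. The tests used edgeR, and 18329 genes passed its filter on low counts, all 8 genes of this family among them. Levels are in CPM, the count scaled by the TMM-normalized size of its library. The tissue carried the markers of the cochlea, with hair cell genes summing to 329.8 to 517 CPM in NR-treated and 358 to 805 CPM in non-treated mice, and those of spiral ganglion neurons to 7559.5 to 8509.8 CPM and 6106 to 9093 CPM. The labels name female mice and the methods male mice, and the Y-linked Ddx3y was at 64.5 to 85.0 CPM with Xist at most 0.405 CPM in all 10 libraries. Certain libraries stood apart. NR-treated mice 1, 3, 4 and 5 and non-treated mouse 1 had far higher levels of somatosensory ganglion genes than the others (called the 5 ganglion libraries here, with Scn10a at 4.11 CPM or more), non-treated mice 3 and 4 had the highest levels of hair and supporting cell genes, and NR-treated mice 3 and 5 had the most skeletal muscle RNA. The fold changes of the 8 genes and the ratios between them are given with and without the ganglion libraries and non-treated mice 3 and 4. Leaving out the former keeps NR-treated mouse 2 against non-treated mice 2 to 5, where the lone NR-treated mouse is assumed to vary like the others. In whole tissue, fewer cells of a type and less RNA per cell cannot be told apart.

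Receptor transcripts were more abundant per length than ligand transcripts in the aged cochlea. Ngfr had the highest level per length of exon, at 38.1 ± 8.58 CPM per kilobase over the 10 mice (mean ± SD). Ntrk2 followed at 8.72 ± 1.13 and Gfra1 at 7.61 ± 0.731 CPM per kilobase. The kinase genes Ntrk3 and Ret had 3.16 ± 0.209 and 2.68 ± 1.49 CPM per kilobase. Among the 5 receptors, Ngfr lay above Ntrk2 and Gfra1 lay above Ntrk3 in 10 of 10 mice without any overlap of their ranges. Ntrk2 exceeded Gfra1 in 7 mice and Ntrk3 exceeded Ret in 5, so these neighbours overlapped. The 3 ligand genes came last, Bdnf at 0.739 ± 0.269, Ntf3 at 0.630 ± 0.241 and Gdnf at 0.50 ± 0.161 CPM per kilobase. Ret exceeded Bdnf in 9 of 10 mice with overlapping ranges, and the ligands overlapped each other, Bdnf above Ntf3 in 5 mice and Ntf3 above Gdnf in 6. The order depends on the exon length used, 30170 bases for Ntrk3 and 19292 for Ntrk2 against 3446 for Ngfr, because the union of all annotated exons counts isoforms that may not be made in this tissue.

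**Figure D1:**
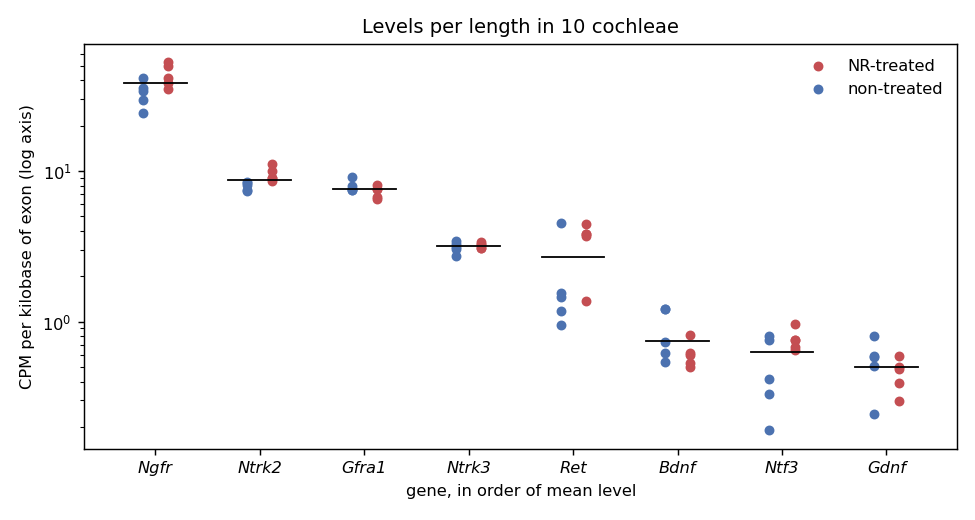
Level of each gene per kilobase of exon (log axis, CPM per kilobase) in each of 10 mice, NR-treated in red and non-treated in blue, with the mean over all mice as a line. Ngfr, at 38.1 CPM per kilobase, stands above every other gene, and Bdnf, Ntf3 and Gdnf lie at the low end with means of 0.739, 0.630 and 0.50.

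The genes also differed in how much they varied between mice. Ret had a coefficient of variation of 55.5% over the 10 mice, higher than that of 98.1% of the 3149 genes within 1.5 times its level. Ngfr varied by 22.5%, more than 94.0% of the 1921 genes near its level. Ntrk3 was among the steadier genes at 6.61%, above only 36.8% of the 2672 genes near its level. The ligands varied by 36.4% (Bdnf), 38.2% (Ntf3) and 32.3% (Gdnf), but their reads were few, 7 to 38 a library for Ntf3, 18 to 67 for Gdnf and 66 to 187 for Bdnf. Counting error alone gives 20.7% for Ntf3, 15.7% for Gdnf and 9.94% for Bdnf.

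Ntrk2 and Ngfr were higher in NR-treated cochlea at an unadjusted p of 0.05, and 0 of the 8 genes passed after adjustment over all tested genes. Of all 18329 genes tested, 9.71% had an unadjusted p of 0.05 or less, made up of 4.83% higher and 4.88% lower with NR, and 0.0% passed an adjusted p of 0.05, where the smallest value was 0.224. The Wald test of DESeq2 also gave 2 of the 8 at an unadjusted p (background 6.58%) and 0 after adjustment (background 0.539%). In direction, 5 of the 8 genes were higher and 3 lower, and 47.1% of all genes were higher. Their median log2 fold change was 0.15 beside -0.01 over all genes. Only Ntrk2 had groups that did not overlap, a pattern seen in 1.65% of all genes and, with NR the higher group, in 0.769%.

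**Figure D2:**
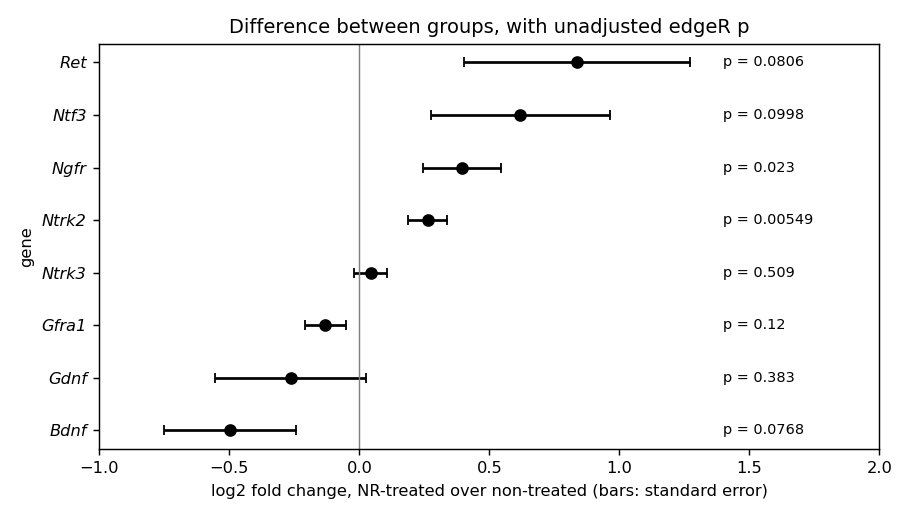
Log2 fold change of NR-treated over non-treated mice for each gene (x axis; points with bars of 1 standard error, n = 5 and 5), with the unadjusted edgeR p at the right. Ret and Ntf3 have the highest estimates, 0.84 and 0.62, with wide errors, while Ntrk2 at 0.26 has an error of 0.08.

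Of the ligands, Bdnf was at 3.76, 5.06, 3.12, 3.32 and 3.82 CPM in NR-treated mice 1 to 5 and 4.52, 3.37, 7.57, 7.58 and 3.85 CPM in non-treated mice 1 to 5. The lower mean with NR came from non-treated mice 3 and 4, which lay at 7.57 and 7.58 CPM while the other 3 non-treated mice lay within the NR-treated range. The levels were 3.81 ± 0.755 CPM in NR-treated and 5.38 ± 2.05 CPM in non-treated mice (mean ± SD, n = 5 and 5), and the log2 fold change was -0.50 (SE 0.25, edgeR unadjusted p = 0.0768, Benjamini-Hochberg adjusted p = 0.555). Without non-treated mice 3 and 4 it was -0.03 (unadjusted p = 0.882), and without the 5 ganglion libraries -0.13. Non-treated mice 3 and 4 had the highest Bdnf and were chosen after the data were seen. Leaving them out therefore had to shrink the difference, and the value without them cannot tell whether Bdnf differs. Leaving out non-treated mouse 3 alone gave -0.32 (unadjusted p = 0.221). Leaving out NR-treated mouse 2, non-treated mouse 2 or non-treated mouse 5 instead moved the unadjusted p to 0.0436, 0.0303 or 0.0451, with adjusted p-values of 0.367 or more in edgeR.

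The same 2 non-treated mice had the most hair cell and supporting cell RNA. The mean log2 CPM of 13 hair cell genes was 4.97 and 5.22 there and 3.64 to 4.44 in the other 8 mice. Their summed level was 748 and 805 CPM against 329.8 to 517 CPM. All 13 hair cell genes had a negative fold change with NR and 3 of them an unadjusted p of 0.05. Of 14 supporting cell and tectorial membrane genes 13 had a negative one and 8 an unadjusted p of 0.05. Among all tested genes 4.88% were lower at that p, and 47.1% had a positive fold change. Summed supporting cell genes reached 3451 and 3621 CPM in these mice and 1603 to 2309 CPM elsewhere. NR-treated mouse 2, next for Bdnf at 5.06 CPM, was also next for both lists. Bdnf had as its nearest genes by pattern BC067074, Ush1c and Crebbp (r = 0.98, 0.97 and 0.97 over 10 mice after removing the group means, among 13352 genes of at least 5 CPM). Ush1c encodes harmonin, a scaffold of the hair bundle. The part of the cell composition in the Bdnf difference was not tested beyond these values.

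**Figure D3:**
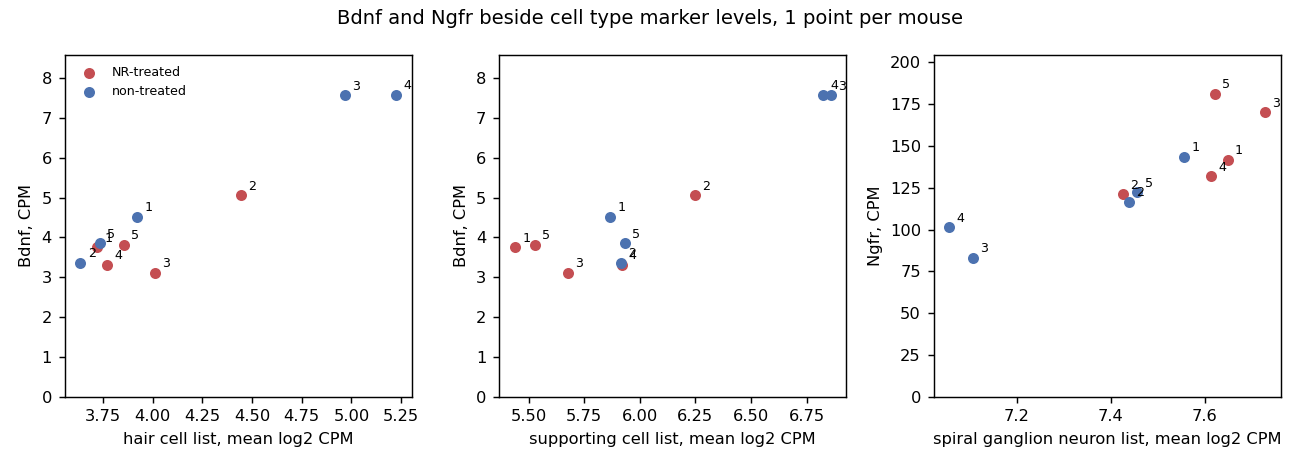
Level of Bdnf (left and middle, CPM) or Ngfr (right, CPM) against the mean log2 CPM of a marker list in the same mouse, NR-treated in red and non-treated in blue, with replicate numbers. Non-treated mice 3 and 4 sit apart at 7.57 and 7.58 CPM of Bdnf with the highest hair and supporting cell levels, and at the low end of the spiral ganglion axis with the lowest Ngfr, 83.2 and 101 CPM.

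Ntf3 was near the lower limit of what these libraries can resolve. Its level was 1.30, 1.12, 1.30, 1.66 and 1.16 CPM in NR-treated mice 1 to 5 and 1.29, 0.718, 0.567, 1.37 and 0.325 CPM in non-treated mice 1 to 5, which were 27, 25, 30, 38 and 20 reads against 26, 16, 14, 31 and 7. All NR-treated mice were at 1.12 CPM or more, but non-treated mice 1 and 4 lay among them. The levels were 1.31 ± 0.213 CPM in NR-treated and 0.853 ± 0.457 CPM in non-treated mice (mean ± SD, n = 5 and 5). The log2 fold change was 0.62 (SE 0.34, edgeR unadjusted p = 0.0998, Benjamini-Hochberg adjusted p = 0.585). Leaving out single mice moved it from 0.41 without non-treated mouse 5 (edgeR unadjusted p = 0.187) to 0.86 without non-treated mouse 4 (0.0305). Without non-treated mouse 1 it was 0.82 (edgeR unadjusted p = 0.0422), and leaving out any of the other 8 mice did not bring it to an unadjusted p of 0.05. It was 0.76 without non-treated mice 3 and 4 (unadjusted p = 0.0807) and 0.60 without the 5 ganglion libraries (0.442).

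The balance of the 2 cochlear neurotrophins was measured within each library as the log2 ratio of their reads per base of exon, with 0.5 reads added to each gene. The log2 ratio of Ntf3 to Bdnf was 0.35, -0.30, 0.61, 0.87 and 0.16 in NR-treated mice 1 to 5 and 0.07, -0.34, -1.83, -0.59 and -1.62 in non-treated mice 1 to 5. In 4 of 5 NR-treated mice the ratio exceeded that of any mouse on regular water, and NR-treated mouse 2 was just above non-treated mouse 2. The ratios were 0.34 ± 0.44 against -0.86 ± 0.83 (mean ± SD, n = 5 and 5), a difference of 1.20 on the log2 scale (exact two-sided permutation test, p = 0.0159, 0.0635 after Benjamini-Hochberg adjustment over the 4 ratios). The difference was 0.97 without non-treated mice 3 and 4 (exact permutation test, p = 0.0536, where the smallest possible is 0.0179) and 0.80 without the 5 ganglion libraries (p = 0.60, where 1 mouse against 4 cannot go below 0.2), and leaving out single mice gave 0.96 to 1.43. Among the 4 ratios computed here, this one passed only before adjustment.

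**Figure D4:**
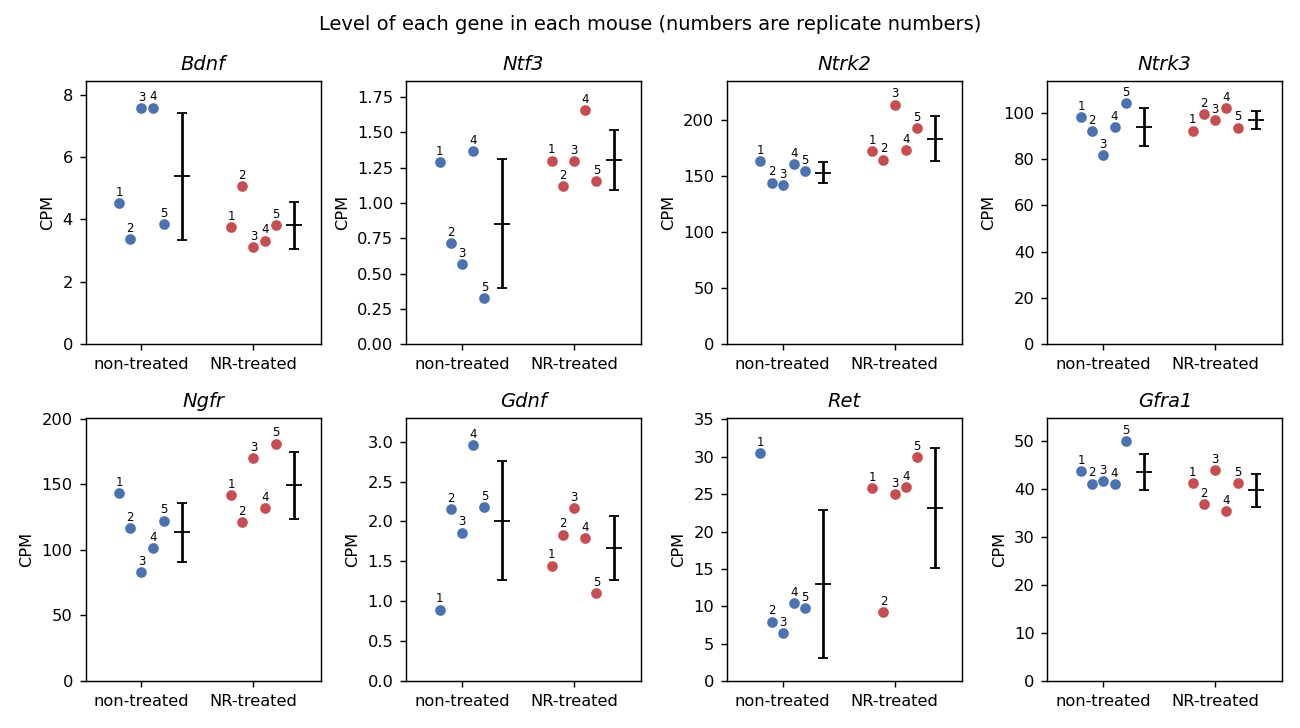
CPM of each of the 8 genes in each mouse (y axes start at 0), non-treated in blue and NR-treated in red, with replicate numbers and the mean ± SD of each group in black. Ntrk2 is the gene whose groups do not overlap, and Ret splits into levels of 6.43 to 10.4 CPM and 25.1 to 30.5 CPM.

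Ntrk2, the gene of the BDNF receptor TrkB, was higher in every NR-treated mouse than in any non-treated mouse. Its level was 173, 165, 214, 173 and 193 CPM in NR-treated mice 1 to 5 and 163, 144, 142, 161 and 155 CPM in non-treated mice 1 to 5. The nearest values were 165 CPM in NR-treated mouse 2 and 163 CPM in non-treated mouse 1, so the groups are separated by little, and NR-treated mice 3 and 5 were the highest. Of the 5 ganglion libraries, the 4 NR-treated ones held the 4 highest values, and non-treated mouse 1 was the highest of its group. The levels were 183 ± 19.9 CPM in NR-treated and 153 ± 9.58 CPM in non-treated mice (mean ± SD, n = 5 and 5), with a log2 fold change of 0.26 (SE 0.08, edgeR unadjusted p = 0.00549, Benjamini-Hochberg adjusted p = 0.423). The exact two-sided permutation test gave p = 0.00794, the smallest that 5 mice against 5 allow. Leaving out single mice gave fold changes of 0.21 to 0.31 with unadjusted p-values of 0.00157 to 0.0113. Without the 5 ganglion libraries the fold change was 0.15, and without non-treated mice 3 and 4 it was 0.26 (unadjusted p = 0.0174). The former leaves out the 4 highest mice, so it cannot tell what the ganglion RNA contributes.

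Ntrk3, the gene of the NT-3 receptor TrkC, did not separate the groups. It was at 92.2, 99.3, 96.7, 102 and 93.5 CPM in NR-treated mice 1 to 5 and 98.1, 91.9, 81.7, 93.7 and 104 CPM in non-treated mice 1 to 5. The group means lay within 1 SD of each other, 96.7 ± 3.97 CPM in NR-treated and 93.9 ± 8.27 CPM in non-treated mice (mean ± SD, n = 5 and 5). The log2 fold change was 0.04 (SE 0.06, edgeR unadjusted p = 0.509, Benjamini-Hochberg adjusted p = 0.832), and it was -0.01 without non-treated mice 3 and 4, 0.11 without the 5 ganglion libraries and 0.01 to 0.08 with single mice left out, lowest without non-treated mouse 3 and highest without non-treated mouse 5. The log2 ratio of Ntrk2 to Ntrk3 in each library was 1.55, 1.38, 1.79, 1.41 and 1.69 with NR and 1.38, 1.29, 1.44, 1.42 and 1.22 without. It averaged 1.56 ± 0.18 against 1.35 ± 0.09 (mean ± SD, n = 5 and 5), with 3 of 5 NR-treated mice above the highest non-treated value of 1.44 (exact two-sided permutation test, p = 0.0714, 0.0952 after Benjamini-Hochberg adjustment over the 4 ratios). The difference of 0.21 became 0.26 without non-treated mice 3 and 4 (exact permutation p = 0.0714) and 0.03 without the 5 ganglion libraries.

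Ngfr, the gene of the p75 receptor, had a higher mean with NR and groups that overlapped. It was at 142, 121, 170.3, 132 and 181 CPM in NR-treated mice 1 to 5 and 144, 117, 83.2, 101 and 122 CPM in non-treated mice 1 to 5. NR-treated mice 3 and 5 were above all other mice, non-treated mice 3 and 4 were below them, and the remaining 6 mice lay between 117 and 144 CPM. The 5 ganglion libraries held the 5 highest values, at 132 CPM or more, and the other mice were at 122 CPM or less. The levels were 149 ± 25.6 CPM in NR-treated and 113 ± 22.7 CPM in non-treated mice (mean ± SD, n = 5 and 5). The log2 fold change was 0.40 (SE 0.15, edgeR unadjusted p = 0.0230, Benjamini-Hochberg adjusted p = 0.474). It was 0.33 without NR-treated mouse 5 (unadjusted p = 0.0516), 0.23 without non-treated mice 3 and 4 (unadjusted p = 0.119) and 0.21 without the 5 ganglion libraries. Non-treated mice 3 and 4 had the lowest Ngfr, so leaving them out had to shrink the difference. The ganglion libraries held the highest Ngfr, so the value without them cannot tell what the ganglion RNA contributes. Measured against the Trk genes of the same library, the log2 ratio of Ngfr to the sum of Ntrk2 and Ntrk3 averaged 1.75 ± 0.17 against 1.55 ± 0.24 (mean ± SD, n = 5 and 5), which did not pass (exact two-sided permutation test, p = 0.175, 0.175 after Benjamini-Hochberg adjustment over the 4 ratios). The difference of 0.20 was 0.04 without non-treated mice 3 and 4, which had the lowest ratios of 1.26 and 1.36, and 0.08 without the 5 ganglion libraries.

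Mice with more Ntrk2 tended to have more Ngfr. Of 21 pairs among 7 of the genes, with Ret left out because its levels fall into 2 clusters, this pair had the highest correlation (Pearson r = 0.844, permutation p = 0.00239, 0.0502 adjusted over the 21 pairs; Spearman rho = 0.830, permutation p = 0.00459, 0.0964 adjusted, n = 10). The correlation narrowly missed 0.05 after adjustment. It was 0.72 without the 2 mice farthest from the median of Ntrk2 and 0.72 after removing the group means. Bdnf and Ngfr had a negative correlation that did not pass adjustment (Pearson r = -0.754, permutation p = 0.0116, 0.122 adjusted; Spearman rho = -0.576, permutation p = 0.0874, 0.448 adjusted, n = 10). For this pair r was -0.26 without the 2 mice farthest from the median of Bdnf and -0.66 after removing the group means. Leaving out the most extreme mice narrows the range of Bdnf, so the first value cannot tell whether the relation rests on them.

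Marker lists of neurons and other cells are given beside these 2 receptors. Their counts are read beside the 4.83% higher and 4.88% lower of all tested genes at an unadjusted p of 0.05. The mean log2 CPM of 18 spiral ganglion neuron genes was 7.61 ± 0.11 in NR-treated and 7.32 ± 0.23 in non-treated mice, lowest in non-treated mice 3 and 4 at 7.11 and 7.06. The 5 ganglion libraries held the 5 highest values, 7.56 to 7.73, against 7.06 to 7.46 in the other mice. Whether this list tells spiral ganglion neurons from those of other ganglia was not tested. Of its 18 genes 13 were higher and 5 lower, with 4 higher and 1 lower at an unadjusted p of 0.05. Of 13 Schwann cell and satellite glia genes 9 were higher and 4 lower, with 0 higher and 2 lower at that p, and their sum was 3280.3 to 4837 CPM with NR and 3264 to 4204 CPM without. Skeletal muscle genes summed to 1022 and 754 CPM in NR-treated mice 3 and 5, the mice with the most Ntrk2 and Ngfr, and to 19.5 to 109 CPM in the other 8, with 9 of 11 muscle genes higher at an unadjusted p of 0.05. Adipocyte genes were higher for 8 of 11 at that p. Their mean log2 CPM was 3.59 ± 0.59 with NR and 1.94 ± 0.55 without, and the groups did not overlap (3.04 to 4.54 against 1.28 to 2.72). Their sums did overlap, at 394 to 851 CPM with NR and 364 to 635 CPM without. The most abundant gene in these sums was Car3, at a mean of 398 CPM, which is also in the list of stria and fibrocyte genes. The part of these tissues in the Ntrk2 and Ngfr differences was not tested.

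The genes that tracked Ngfr most closely were Mad2l1bp, Pou4f1 and Uchl1 (r = 0.98, 0.98 and 0.97 over 10 mice after removing the group means, among 13351 genes). Pou4f1 encodes the sensory neuron transcription factor Brn3a, and it ran from 16.0 CPM in non-treated mouse 3 to 55.2 CPM in NR-treated mouse 5. Uchl1, an abundant neuronal ubiquitin hydrolase also known as PGP9.5, had its extremes in the same mice, 172 and 536 CPM. For both Pou4f1 and Uchl1 the 5 highest values were those of the 5 ganglion libraries. Nearest to Ntrk2 were Snx11, Ccser2 and Det1 (r = 0.98, 0.93 and 0.91), and nearest to Ntrk3 were Cep120, Kcnj9 and Prkaa1 (r = 0.96, 0.95 and 0.94). Ntf3 was closest to Atl3, Entpd5 and Proser2 (r = 0.95, 0.94 and 0.94), where its few reads make the order of neighbours uncertain. These are descriptions from 10 mice, chosen as the highest values among all candidate genes.

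Gdnf, the ligand of the second receptor system, was as scarce as Ntf3 and overlapped fully between groups. It was at 1.45, 1.83, 2.16, 1.79 and 1.10 CPM in NR-treated mice 1 to 5 and 0.894, 2.15, 1.86, 2.95 and 2.18 CPM in non-treated mice 1 to 5, from 18 to 67 reads. The lowest and the highest value were both in non-treated mice, 1 and 4. The levels were 1.67 ± 0.406 CPM in NR-treated and 2.01 ± 0.743 CPM in non-treated mice (mean ± SD, n = 5 and 5), with a log2 fold change of -0.27 (SE 0.29, edgeR unadjusted p = 0.383, Benjamini-Hochberg adjusted p = 0.773). Single mice moved it widely, to -0.085 without non-treated mouse 4 (unadjusted p = 0.777), -0.14 without NR-treated mouse 5 (0.641) and -0.44 without non-treated mouse 1 (0.0786). It was -0.058 without non-treated mice 3 and 4 (unadjusted p = 0.866) and -0.30 without the 5 ganglion libraries (0.443). Zfp317, Psd2 and Cgrrf1 had the most similar pattern (r = 0.94, 0.94 and 0.93).

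Gfra1, the co-receptor, was steady, at 41.2, 36.9, 44.0, 35.5 and 41.3 CPM in NR-treated mice 1 to 5 and 43.8, 41.2, 41.7, 41.1 and 50.1 CPM in non-treated mice 1 to 5. The highest value was in non-treated mouse 5 and the lowest in NR-treated mouse 4, and the groups overlapped. The levels were 39.8 ± 3.51 CPM in NR-treated and 43.6 ± 3.82 CPM in non-treated mice (mean ± SD, n = 5 and 5). The log2 fold change was -0.13 (SE 0.08, edgeR unadjusted p = 0.120, Benjamini-Hochberg adjusted p = 0.610). It was -0.077 without non-treated mouse 5 (unadjusted p = 0.309) and -0.086 without NR-treated mouse 4 (0.305), the mice at the extremes. Without non-treated mice 3 and 4 it was -0.17 (unadjusted p = 0.0871) and without the 5 ganglion libraries -0.23 (0.187). Its closest genes were Ints5, Gtpbp6 and Fxyd1 (r = 0.92, 0.92 and 0.90).

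Ret, the kinase of the GDNF family, varied most of all and fell into 2 levels. It was at 25.8, 9.22, 25.1, 25.9 and 29.9 CPM in NR-treated mice 1 to 5 and 30.5, 7.95, 6.43, 10.4 and 9.80 CPM in non-treated mice 1 to 5. NR-treated mice 1, 3, 4 and 5 and non-treated mouse 1 lay between 25.1 and 30.5 CPM, and NR-treated mouse 2 with the other 4 non-treated mice between 6.43 and 10.4 CPM. Each group therefore held 1 mouse with the level of the other group. The levels were 23.2 ± 8.04 CPM in NR-treated and 13.0 ± 9.89 CPM in non-treated mice (mean ± SD, n = 5 and 5), and the log2 fold change was 0.84 (SE 0.43, edgeR unadjusted p = 0.0806, Benjamini-Hochberg adjusted p = 0.559). Without non-treated mouse 1 it was 1.43 (unadjusted p = 0.000745, adjusted p = 0.151), and without NR-treated mouse 2 it was 1.05 (unadjusted p = 0.0236, adjusted p = 0.306). It was 0.54 without non-treated mice 3 and 4 (unadjusted p = 0.292).

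The 5 mice with high Ret were the 5 with high levels of somatosensory ganglion genes, which were found at a lower level in the other libraries too. The closest gene by pattern was Pirt (r = 0.98 within groups, then 1700020L24Rik and Gcnt2 at 0.95 and 0.94), which encodes a membrane protein of such neurons. Pirt was at 42.5, 9.40, 45.4, 31.3 and 51.5 CPM in NR-treated mice 1 to 5 and 47.3, 5.43, 3.28, 5.56 and 7.29 CPM in non-treated mice 1 to 5. A list of 14 somatosensory genes was then written, after these values had been seen, so it gives a description and no independent evidence. Its summed level was 209, 211, 159 and 243 CPM in NR-treated mice 1, 3, 4 and 5 and 239 CPM in non-treated mouse 1. It was 38.4 CPM in NR-treated mouse 2 and 16.8 to 34.2 CPM in the remaining non-treated mice. Of its 10 tested genes all had a positive fold change with NR and 1 had an unadjusted p of 0.05. Among all tested genes 47.1% had a positive fold change and 4.83% were higher at that p.

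The 5 ganglion libraries were of more than one kind. The ATP receptor gene P2rx3 was at 46.4 to 61.8 CPM in NR-treated mice 1, 3 and 5 and non-treated mouse 1, 4.54 CPM in NR-treated mouse 4 and at most 1.89 CPM in the others. Scn10a, the sodium channel of nociceptors, was at 4.11 CPM or more in the same 5 libraries and at 0.650 CPM or less in the others, at 4.19, 0, 4.63, 14.9 and 4.11 CPM in NR-treated mice 1 to 5 and 8.49, 0.0898, 0.0809, 0.132 and 0.650 CPM in non-treated mice 1 to 5. Calca, which encodes the peptide CGRP, was highest in NR-treated mouse 4, at 31.9 CPM, and in non-treated mouse 1, at 18.1 CPM. In the other 8 mice Calca was at most 4.76 CPM. Of 14 autonomic and visceral neuron genes 8 were tested, 7 higher and 1 lower, with 3 higher at an unadjusted p of 0.05 (median log2 fold change 0.47). Among all tested genes 4.83% were higher at that p. The mean log2 CPM of the 8 tested genes of this list was 1.64 to 1.99 with NR and 1.13 to 1.47 without. The 14 genes summed to 67.8 to 105 CPM with NR and 72.6 to 107 CPM without, where Gata2 was the most abundant at a mean of 63.6 CPM. In the same list, the noradrenaline enzyme gene Dbh was at most 0.173 CPM and Chat, the acetylcholine enzyme gene, at most 0.0405 CPM in any mouse. These are 2 of its 14 genes and do not stand for the 8 tested ones, of which 7 were higher.

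**Figure D5:**
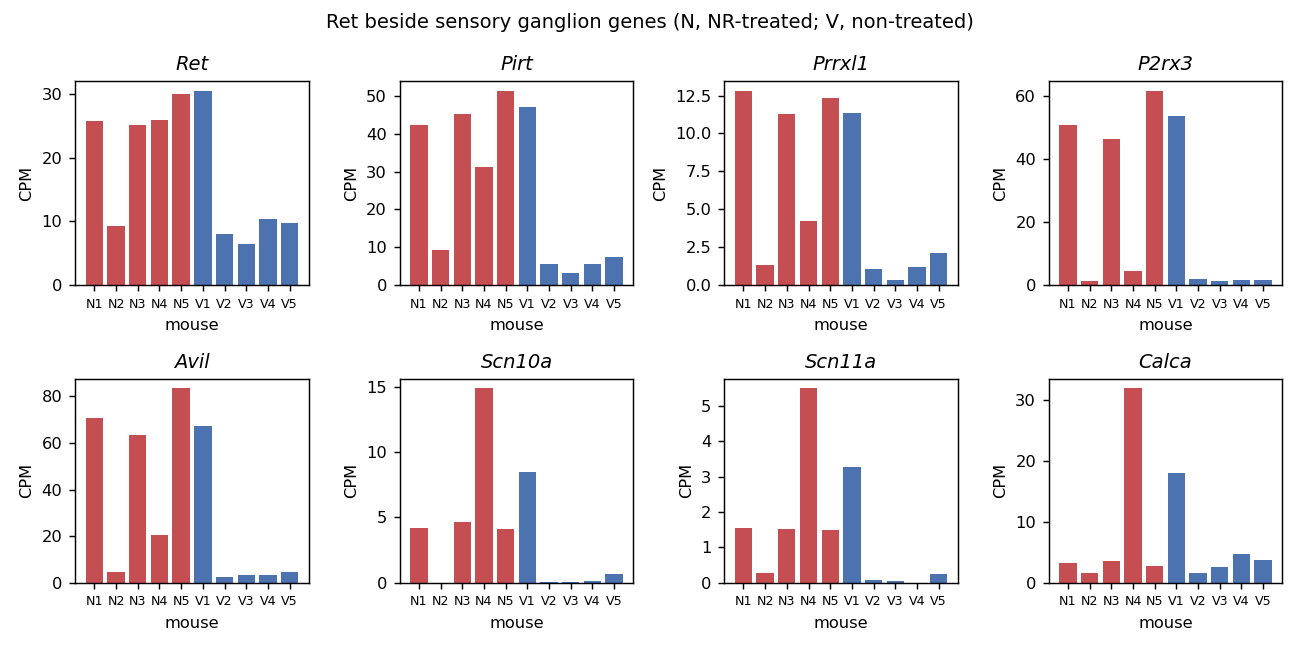
CPM (bars, axes start at 0) of Ret and 7 sensory ganglion genes in each mouse, NR-treated in red (N1 to N5) and non-treated in blue (V1 to V5). Ret is at 25.1 CPM or more only in the 5 mice with Scn10a at 4.11 CPM or more, and P2rx3 is at 46.4 CPM or more in 4 of these 5.

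With the 5 ganglion libraries left out, the log2 fold change of Ret was 0.11. Those are the same 5 mice that had the highest Ret, so leaving them out had to lower the difference. That value therefore cannot tell what the ganglion RNA contributes. The log2 ratio of Gfra1 to Ret was 0.98, 2.30, 1.12, 0.76 and 0.77 in NR-treated mice 1 to 5 and 0.83, 2.68, 3.0, 2.29 and 2.66 in non-treated mice 1 to 5, low in the same 5 mice. It averaged 1.19 ± 0.64 against 2.29 ± 0.85 (mean ± SD, n = 5 and 5), a difference of -1.10 (exact two-sided permutation test, p = 0.0556, 0.0952 after Benjamini-Hochberg adjustment over the 4 ratios). The difference was -0.87 without non-treated mice 3 and 4 (exact permutation test, p = 0.232). It was -0.35 without the 5 ganglion libraries, where the same limit holds. Beyond these values, the part of the ganglion RNA in the Ret difference was not tested.

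The genes around the 8 in the same pathways were counted next, from 8 lists of 149 genes, each count read against the background of 4.83% higher and 4.88% lower at an unadjusted p of 0.05. Where genes are said not to overlap between groups, the share of all tested genes is 1.65%. None of the list genes passed an adjusted p of 0.05 in edgeR, and the Wald test of DESeq2 passed Cpe, Islr2 and Dusp4 among those named below (adjusted p = 0.0440, 0.00330 and 0.0121). Of 10 other neurotrophin ligands, receptors and co-receptors, 0 were higher and 0 lower (median log2 fold change 0.04). The most abundant was Sort1, which encodes sortilin, the partner of p75 in binding pro-neurotrophins, at 205 ± 9.87 CPM in NR-treated and 223 ± 33.5 CPM in non-treated mice (mean ± SD, n = 5 and 5). Ntf5, the gene of neurotrophin-4, was about as scarce as Ntf3, at 0.961 to 2.94 CPM with NR and 1.24 to 1.90 CPM without.

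In the rest of the GDNF family, 9 of 11 genes were tested, of which 2 were higher and 1 lower (median -0.12). Gfra2, the co-receptor of neurturin, was at 6.60, 2.68, 5.63, 3.06 and 5.85 CPM in NR-treated mice 1 to 5 and 4.57, 2.65, 2.02, 2.56 and 2.37 CPM in non-treated mice 1 to 5. It was highest in NR-treated mice 1, 3 and 5 and non-treated mouse 1, and its log2 fold change was 0.75 (SE 0.30, edgeR unadjusted p = 0.0304, Benjamini-Hochberg adjusted p = 0.476). Without non-treated mice 3 and 4 it was 0.58 (unadjusted p = 0.139), and with single mice left out 0.61 to 0.99 (0.00558 to 0.0737). Without the 5 ganglion libraries, which held the highest values, it was 0.18, which cannot tell what the ganglion RNA contributes. Gfra4, the co-receptor of persephin, was at 15.3 to 17.5 CPM with NR and 10.9 to 16.3 CPM without (log2 fold change 0.26), and Nrtn, which encodes neurturin, at 15.2 to 17.0 CPM and 16.8 to 18.9 CPM (-0.16). The heparan sulfate proteoglycan gene Sdc3 was the most abundant, at a mean of 207 CPM over the 10 mice. Gfra3, the artemin co-receptor, was under the filter and reached 3.10 CPM only in NR-treated mouse 4.

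Neurotrophins are made as precursors that proteases cleave, and of 14 genes of processing and release 13 were tested, with 4 higher and 2 lower (median -0.08). Cpe, a carboxypeptidase that also sorts pro-BDNF into granules, was the most abundant and did not overlap between groups, at 469.9 to 516 CPM with NR and 384 to 456 CPM without. Its log2 fold change was 0.24 (SE 0.06, edgeR unadjusted p = 0.00367, Benjamini-Hochberg adjusted p = 0.408). The neuroendocrine convertases Pcsk2 and Pcsk1 had fold changes of 0.64 and 1.05, and the matrix protease Mmp9 0.86. Pcsk5 and Pcsk6, convertases of the constitutive pathway, had -0.39 and -0.53, and Pcsk6 ranged from 49.6 to 122 CPM in non-treated mice. Unadjusted p-values of these 6 genes were 0.00367 to 0.0309.

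Of 28 adaptor and proximal signalling genes of Trk and Ret, 26 were tested, 2 higher and 2 lower (median -0.00). Dok5, an adaptor of Ret, was at 11.5 to 13.4 CPM with NR and 6.76 to 11.0 CPM without, with no overlap (log2 fold change 0.40 (SE 0.13, edgeR unadjusted p = 0.00920, Benjamini-Hochberg adjusted p = 0.434). Shc2 had a fold change of 0.26 (unadjusted p = 0.0203). The docking protein Frs2 (-0.15) and Kidins220 (-0.18), a Trk-bound scaffold and the most abundant of the list, were lower (unadjusted p = 0.0309 and 0.0414). In the MAPK, PI3K and CREB arm, 25 genes gave 0 higher and 4 lower (median -0.04), namely Pik3ca (-0.11), Rps6ka1 (-0.10), Map2k2 (-0.09) and Akt2 (-0.25), with unadjusted p-values of 0.0165 to 0.0431. Scaling by total counts in place of TMM left 0 of the 25 at that p. Of 19 effectors of p75, 1 was higher and 0 lower (median -0.02). It was Bex3, a protein that binds the death domain of p75, with a fold change of 0.17 (unadjusted p = 0.0309), and Maged1 was the most abundant at a mean of 457 CPM.

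Among 24 genes that neurotrophins induce or that feed back on the receptors, 2 were higher and 2 lower (median 0.00). The 2 lower ones had the smallest p-values of the 149 list genes. Islr2, which encodes Linx, a partner of Trk and Ret receptors, was at 6.17, 6.53, 7.27, 7.55 and 6.14 CPM in NR-treated mice 1 to 5 and 9.63, 10.1, 11.4, 8.77 and 9.33 CPM in non-treated mice 1 to 5, with groups that did not overlap (log2 fold change -0.55 (SE 0.11, edgeR unadjusted p = 0.000390, Benjamini-Hochberg adjusted p = 0.320). Dusp4, a phosphatase of ERK, was at 10.6 to 15.0 CPM with NR and 15.5 to 27.4 CPM without, also with no overlap (log2 fold change -0.67 (SE 0.15, edgeR unadjusted p = 0.000898, Benjamini-Hochberg adjusted p = 0.370). Spry4, an inhibitor of receptor kinase signalling, had a fold change of 0.35 and Nptx2, a synaptic pentraxin that BDNF induces, of 0.69 (unadjusted p = 0.0169 and 0.0482). The most abundant gene was the ubiquitin ligase gene Nedd4, at a mean of 654 CPM.

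Of 18 other trophic ligands and receptors of the cochlea 17 were tested, with 2 higher and 2 lower (median 0.04). Fgf1, a fibroblast growth factor of sensory neurons, was at 79.4, 103, 96.3, 88.9 and 88.1 CPM in NR-treated mice 1 to 5 and 52.6, 70.2, 44.5, 77.2 and 77.5 CPM in non-treated mice 1 to 5, with no overlap (log2 fold change 0.50 (SE 0.15, edgeR unadjusted p = 0.00627, Benjamini-Hochberg adjusted p = 0.423). Csf1, the macrophage growth factor, had a fold change of 0.27. Ptn, which encodes pleiotrophin and was the most abundant of the list, had -0.31, and Cntfr, the receptor of ciliary neurotrophic factor, -0.21. Their unadjusted p-values were 0.0386, 0.0131 and 0.0366.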

How the data were processed

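The deposited values are whole-number read counts per gene, 1 library for each of 10 cochlear samples. Per the labels and methods, the authors' provider filtered reads with fastp, aligned them to mm10 with STAR 2.6.1d (2 mismatches) and counted them without strand with featureCounts 1.5.0. The annotation release is not given in the sources used here, but the exon lengths of all 8 genes match GENCODE M21. Here, edgeR 4.0.16 in R 4.3.3 (TMM, filterByExpr, glmQLFit, glmQLFTest) compared the groups over 18329 genes, with Benjamini-Hochberg adjustment over all of them. Genes under the filter came from a fit of all 33224 genes with a read. Single values were tested by exact two-sided permutation of group labels and correlations with 100000 resamples. Log2 CPM had a prior count of 2. No 2 libraries agreed within sampling noise, and the tests were checked on simulated data.

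Named are the 8 genes, of each of 8 pathway lists the most abundant gene and those with an unadjusted p of 0.05 (up to 6), and the 3 genes closest in pattern to each of the 8. The ganglion genes, Ntf5, Gfra3 and the sex genes were chosen after their values were seen. Dbh and Chat were named outside these rules. The 8 genes and all lists were chosen with earlier results of these data known. Alternatives were DESeq2 1.42.0, its size factors, total counts, other filters, robust dispersion estimates, a block on replicate numbers, each mouse left out and, chosen after seeing the data, 2 sets of libraries left out. A few genes of these lists are not reported here.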

Additional observations from a re-analysis of the deposited data

Results flagged for a closer look

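Dixon's test at 95% was run on 24 groups of 5 values (8 genes and 4 ratios in both groups), where chance flags about 1 in 20. It marked 3, all of them from Ret. NR-treated mouse 2 had Ret at 9.22 CPM, far below the nearest NR-treated mouse at 25.1 CPM. Non-treated mouse 1 had Ret at 30.5 CPM, far above the nearest non-treated mouse at 10.4 CPM. In the log2 ratio of Gfra1 to Ret, NR-treated mouse 2 was at 2.30 and the nearest NR-treated mouse at 1.12. In the same mice the somatosensory gene Scn10a was at 0 CPM in NR-treated mouse 2 and at 8.49 CPM in non-treated mouse 1.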

How the results depend on the processing

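Across the alternatives 0 of the 8 genes reached an adjusted p of 0.05 (range 0.135 to 0.999). With edgeR's other normalizations, filters and dispersions and with DESeq2, each of the 8 kept its direction. The one reversal among them was Ntrk3, at -0.014 without non-treated mice 3 and 4. Of 30 other named pathway genes, Sort1, Sdc3 and Nedd4 reversed to 0.018, 0.0097 and 0.049 without those mice, and Mmp9 and Csf1 to -0.049 and -0.11 without the 5 ganglion libraries (Scn10a at 4.11 CPM or more). Replicate numbers are shared by the groups only as numbers: same-numbered mice had correlations of deviations of 0.17, -0.12, -0.22, 0.02 and 0.13, and only mouse 1 correlated best with its own number. With the replicate number as a block the log2 ratio of Ntf3 to Bdnf stayed at 1.20 with an exact permutation p of 0.0625, the smallest that block allows, and 4 of the 8 genes had an unadjusted p of 0.05 (Ret and Ntf3 in addition), as did 1 gene of the rest of the GDNF family, 1 of the MAPK, PI3K and CREB arm and 0 of the p75 effectors. With that block 9.03% of all tested genes had an unadjusted p of 0.05 or less. The log2 ratio of Ntf3 to Bdnf was 0.97 without non-treated mice 3 and 4 and 0.80 without the 5 ganglion libraries.

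Counts at an unadjusted p of 0.05 changed as follows, and the cause was not tested. Scaling by total counts gave 0 in the MAPK, PI3K and CREB arm and 2 p75 effectors (9.61% of all tested genes). It also gave 2 in the rest of the GDNF family, 3 adaptors and 6 induced and feedback genes. DESeq2 gave 5 adaptors, 5 induced and feedback genes and 5 other trophic genes (6.58% of all). The block on replicate numbers gave 3 other trophic genes. Testing all genes with a read gave 3 of the 8 genes (Ret in addition), 1 other neurotrophin gene and 1 in the MAPK, PI3K and CREB arm (7.46% of all). That fit also gave 2 in the rest of the GDNF family, 3 adaptors, 6 induced and feedback genes and 6 other trophic genes. A CPM of at least 1 in 5 samples gave 1 in the MAPK, PI3K and CREB arm (9.69% of all). With that filter there were also 2 in the rest of the GDNF family, 3 adaptors and 6 induced and feedback genes. The fit without the 5 ganglion libraries keeps 1 NR-treated mouse, so no count is read from it. Without non-treated mice 3 and 4 the counts were 1 of the 8 genes, 1 in the rest of the GDNF family and 2 in processing and release. There were also 2 adaptors, 2 in the MAPK, PI3K and CREB arm, 0 p75 effectors and 3 other trophic genes. The share of all tested genes was 9.69% in that fit.

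Leaving out each mouse in turn gave 1 to 4 of the 8 genes, 0 to 1 other neurotrophin genes, 0 to 4 in the rest of the GDNF family, 4 to 7 in processing and release, 2 to 5 adaptors, 0 to 4 in the MAPK, PI3K and CREB arm, 0 to 3 p75 effectors, 3 to 8 induced and feedback genes and 2 to 6 other trophic genes. The share of all tested genes at that p moved too, from 6.23% without NR-treated mouse 3 to 13.1% without NR-treated mouse 2. The log2 ratio of Ntf3 to Bdnf ran from 0.96 to 1.43, that of Ntrk2 to Ntrk3 from 0.15 to 0.26 (exact permutation p = 0.0238 without NR-treated mouse 2 and 0.0397 without NR-treated mouse 4), that of Gfra1 to Ret from -1.47 to -0.93 (exact permutation p = 0.0317 without NR-treated mouse 2 and 0.0238 without non-treated mouse 1) and that of Ngfr to the Trk genes from 0.13 to 0.27. With 5 mice a group, Ret is limited by its spread between mice, and the ligands by their spread and by their few reads. Counting error of the ligands was 9.94% to 20.7%, below their variation of 32.3% to 38.2% over the 10 mice.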

Other observations

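Marker lists that belong to no comparison of the neurotrophin genes gave the following counts in NR-treated against non-treated mice. Among all tested genes 4.83% were higher and 4.88% lower at an unadjusted p of 0.05, and 47.1% had a positive fold change. Genes of the stria vascularis and of fibrocytes were 0 higher and 12 lower of 12 tested, 0 and 5 at an unadjusted p of 0.05, and their sum was 4104 to 6386 CPM with NR and 4789 to 7976 CPM without, highest in non-treated mice 3 and 4. Genes of central nervous system glia and neurons were 3 higher and 7 lower of 10 tested, 0 and 0 at an unadjusted p of 0.05, and their sum was 247 CPM in non-treated mouse 1 and 488 to 755 CPM in the other 9 mice. B cell and bone marrow genes were 7 higher and 7 lower of 14 tested, 0 and 0 at an unadjusted p of 0.05, with sums of 1399 to 4681 CPM and 1432 to 5711 CPM. Bone genes were 6 higher and 4 lower of 10 tested, 1 and 0 at an unadjusted p of 0.05. Sex genes were 0 higher and 4 lower of 4 tested, 0 and 1 at an unadjusted p of 0.05. Non-treated mouse 1, which had Ret at 30.5 CPM and the ganglion genes, was thus also the mouse with the least central nervous system RNA.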
